A study of Mus musculus with 8 samples.

Results

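Kit and Flt3 are 2 related receptor tyrosine kinases on mouse chromosome 5, and the regions described here are the ATAC-seq peaks that lie in a window around each gene. The Kit window, chr5:75800000-76060000 in the mm9 build, holds the gene on the plus strand (about 75971000 to 76053000) with its upstream flank. The Flt3 window, chr5:148130000-148230000, holds the gene on the minus strand (about 148142000 to 148212000) with short flanks. These windows held 165 of the 557040 deposited peaks, 72 around Kit and 93 around Flt3. Peaks of all libraries that overlapped were merged into 33 regions, 20 around Kit and 13 around Flt3, of 114533 genome-wide. The members were chosen by position alone.

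ATAC-seq inserts sequencing adapters where a transposase can reach the DNA and so maps open chromatin. The cells were c-Kit+ bone marrow cells, taken with magnetic beads against Cd117, the protein that Kit encodes, 4 weeks after PIpC injection and used at 50000 cells per sample. Each of 4 genotypes had 2 libraries. Smc3 fl/del Flt3-ITD mice carried Mx1-Cre, a floxed Smc3 allele and the Flt3-ITD allele, and their titles call Smc3 heterozygous, so the state of the second Smc3 allele is not settled. Flt3-ITD mice carried the duplication and, by the title, Mx1-Cre. Smc3 del/+ mice carried Mx1-Cre and 1 deleted Smc3 allele. Control mice were Smc3 fl/+ without Mx1-Cre, so in every comparison with control the alleles and the recombinase cannot be told apart. PIpC switches on Mx1-Cre through interferon signalling, in blood stem cells and in other tissues. For Flt3-ITD and Smc3 del/+ the description field names the other genotype; titles and genotype labels, which match each other, were followed. The labels speak of individual mice without saying that paired libraries came from different animals, so each p-value reflects how far these libraries vary, which may be technical.

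Kit binds stem cell factor and is needed by blood stem cells, erythroid precursors and mast cells. Flt3 binds Flt3 ligand and marks multipotent and lymphoid-primed progenitors. Its internal tandem duplication, ITD, lengthens the juxtamembrane segment and makes the kinase signal without ligand. The ITD lies in Flt3 itself, so in the Flt3 window every comparison by Flt3-ITD sets an altered Flt3 allele against the unaltered gene. Effects of the altered sequence on the peaks and effects of its signalling cannot be told apart there. Kit transcription is known to depend on distal upstream and intronic elements bound by GATA factors, and Smc3 belongs to cohesin, a ring-shaped complex that extrudes DNA loops and can bring such elements near promoters.

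The bases just before each start are shown because a peak lay at or beside both starts in every library. They are the 250 bases before the RefSeq start in GRCm38.p6, a later build whose coordinates cannot be set beside the mm9 peaks. The Kit stretch is chr5:75574737-75574986 on the plus strand and the Flt3 stretch chr5:147400490-147400739 on the minus strand. Motifs for 4 factor families and the E-box were searched on both strands, and capitals mark the matches of GAGGAA and of GGGCGG.
Kit promoter: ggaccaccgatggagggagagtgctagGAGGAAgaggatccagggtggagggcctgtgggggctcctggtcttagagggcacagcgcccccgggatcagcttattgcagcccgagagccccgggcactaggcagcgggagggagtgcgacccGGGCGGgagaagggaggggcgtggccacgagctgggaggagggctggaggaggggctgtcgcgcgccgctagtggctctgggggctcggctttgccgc
Flt3 promoter: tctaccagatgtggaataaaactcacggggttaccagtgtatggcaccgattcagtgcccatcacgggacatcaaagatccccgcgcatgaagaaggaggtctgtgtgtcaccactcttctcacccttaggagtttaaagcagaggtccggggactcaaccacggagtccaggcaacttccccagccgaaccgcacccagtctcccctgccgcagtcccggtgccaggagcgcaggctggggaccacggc
The Kit stretch was 70.8% G and C with 17 CpG dinucleotides, and 92.1% of 27025 mouse promoters had a lower G and C share. The Flt3 stretch was 59.2% G and C with 13 CpG, against a median over all promoters of 52.0% and 6. Kit held 1 GAGGAA, a PU.1-type motif found in 23.1% of promoters, and 1 GGGCGG, an Sp and Klf motif found in 32.9%. Flt3 held neither, and it had 1 E-box, CANNTG (not in capitals), which 66.0% of promoters hold and the Kit stretch did not. Neither stretch held GATAA, the GATA motif of 23.0% of promoters, or TGTGGT, the RUNX motif of 14.2%. The 2 Kit matches do not overlap, and a match is a description of letters, not of binding.

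At the Kit start, 7 libraries had a peak in chr5:75970311-75971520, and the deposited score was exactly 1, its maximum, in each. The peak covered 1178 and 430 bp in Smc3 fl/del Flt3-ITD, 1156 and 464 bp in Flt3-ITD, 1082 and 355 bp in Smc3 del/+ and 379 bp in control replicate 2. Control replicate 1 had its peak next to this region, at chr5:75971540-75971964, also with a score of 1. Allowing gaps of up to 100 bp when merging, a choice made after seeing these peaks, placed all 8 libraries in a single region. The start of Kit or the bases just past it were thus called in every library.

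At the Flt3 start, all 8 libraries had a peak in chr5:148211604-148212461 with a score of exactly 1. It covered 491 and 347 bp in Smc3 fl/del Flt3-ITD, 250 and 456 bp in Flt3-ITD, 480 and 425 bp in Smc3 del/+ and 312 and 284 bp in control. Both Smc3 fl/del Flt3-ITD and both Smc3 del/+ libraries lay above both controls, and the Flt3-ITD libraries lay on either side of them. The share of all regions with that order was not counted. The difference between the 4 libraries with Smc3 deletion and the 4 without it did not pass (0.43 ± 0.26 on the log2 scale, estimate ± SE, adjusted p = 0.930 by limma). Nor did that between the 4 libraries with Flt3-ITD and the 4 without it (0.05 ± 0.26, adjusted p = 0.986 by limma). The peaks took up 2 positions that did not follow genotype. Those of Smc3 fl/del Flt3-ITD replicate 2, Flt3-ITD replicate 1, Smc3 del/+ replicate 2 and control replicate 1 ended between -50 and -24 bp relative to the start. In the other library of each genotype the peak reached between 222 and 396 bp past the start.

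**Figure D1:**
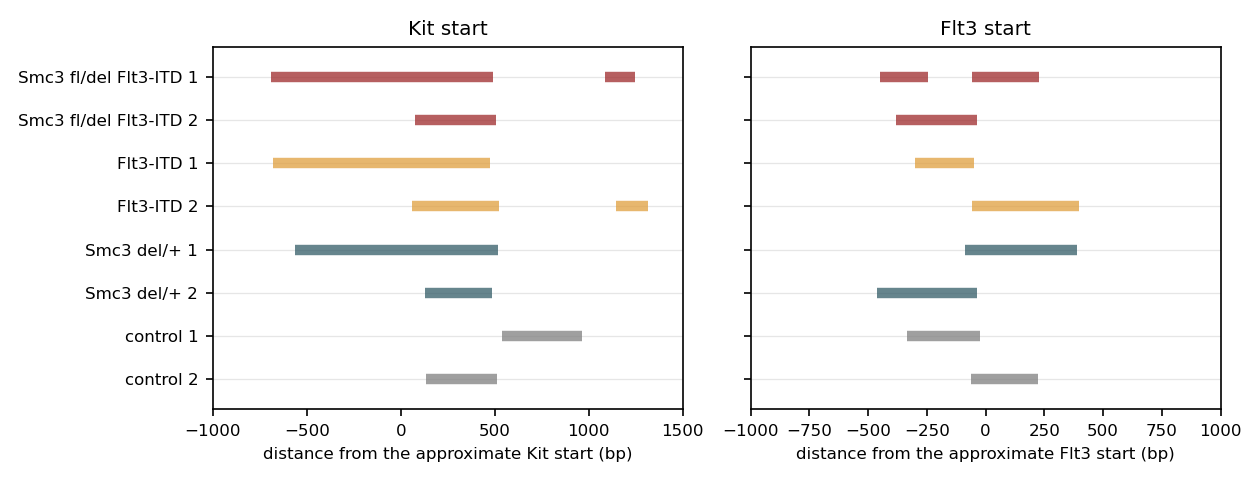
Peaks around the Kit and Flt3 starts, 1 row per library, drawn as bars against the distance from the approximate start in bp along the direction of transcription. At Kit, control replicate 1 has its peak from 540 to 964 bp, just past those of the other 7 libraries, and at Flt3 the peaks fall on either side of the start in 1 library of each genotype.

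The sites differed in how steadily they were called. Around Flt3, 9 of 13 regions were called in all 8 libraries and none in a single library. Around Kit, 1 of 20 regions was called in all 8, 4 were called in 7 and 4 in a single library. Over all regions 31.5% were called in all 8, 7701 of 114533 in 7, and 24.0% in a single library. Pooled over libraries, 34.4% of Flt3 peaks (32 of 93) and 13.9% of Kit peaks (10 of 72) had a score of exactly 1. Of all peaks 31.5% had it. The Flt3 share was uneven by genotype. Each library with Flt3-ITD had 4 to 8 such Flt3 peaks of 10 to 15, and each library without it had 2 of 10 to 13. Such Kit peaks numbered 1 or 2 in every library. The cells were measured in bulk, so a region open in fewer cells and a region less open in each cell cannot be told apart. Kit regions had a median width of 879 bp and Flt3 regions of 1031 bp, beside 905 bp over all regions. Peaks of 700 bp or more made up 30.6% of Kit peaks (22 of 72) and 37.6% of Flt3 peaks (35 of 93), against 23.8% of all peaks.

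**Figure D2:**
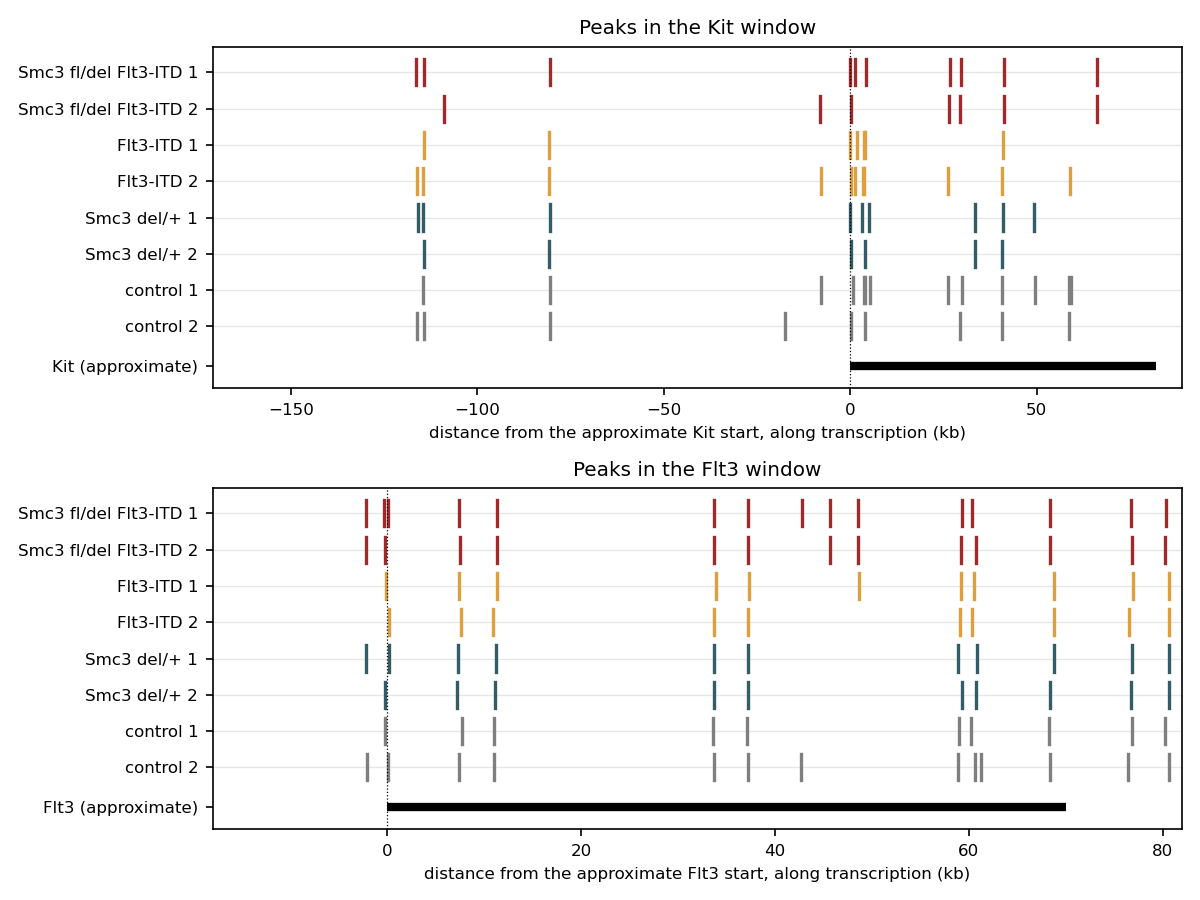
Positions of all 165 peaks by library, with a tick at each peak's centre against the distance in kb from the approximate start along transcription and the approximate gene as a black bar. Flt3 regions line up across libraries, 9 of them in all 8, whereas most Kit regions have ticks in a few libraries only.

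The libraries differed in list length, which bears on every call below. Smc3 fl/del Flt3-ITD libraries had 80698 and 80316 peaks, and the other 6 had between 61953 and 74525. They also stood apart on the sex chromosomes, with 294 and 282 peaks on Y against 84 to 98 in the other 6, and sex is not among the labels. Read depth is unknown for every library, and its part in the results was not tested.

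Upstream of Kit lay a far cluster and a middle site. The far site, chr5:75855703-75857384, about 114 kb before the start, was the widest Kit region at 1682 bp. It covered 1154 bp in Smc3 fl/del Flt3-ITD replicate 1 and had no peak in replicate 2. Flt3-ITD had 312 and 1483 bp, Smc3 del/+ 613 and 1222 bp, and control 929 and 1421 bp. All single genotypes overlapped with control. Its neighbour at chr5:75854033-75855345 was called in 1 library of each genotype. The middle site, chr5:75889678-75891070, about 81 kb before the start, covered 1374 bp in Smc3 fl/del Flt3-ITD replicate 1, 1136 and 646 bp in Flt3-ITD, 417 and 313 bp in Smc3 del/+, and 291 and 978 bp in control. Smc3 fl/del Flt3-ITD replicate 2 again had no peak there. The remaining upstream regions, 8 to 109 kb before the start, were called in at most 3 libraries, never in both of a genotype.

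Inside Kit, close to the start, chr5:75974049-75975481 covered 400 bp in Smc3 fl/del Flt3-ITD replicate 1, 1109 and 584 bp in Flt3-ITD, 448 and 474 bp in Smc3 del/+ and 253 and 144 bp in control. It was the third site that Smc3 fl/del Flt3-ITD replicate 2 lacked and all other libraries had. That library had 80316 peaks in all, and such sites were not counted genome-wide. All libraries of the single genotypes covered more of this region than either control, and how many regions genome-wide do so was not counted. With the 30 kb region described next, it was 1 of 2 regions, among 33 members, where Smc3 deletion went with opposite directions without and with Flt3-ITD in every library. Of all regions called in at least 2 libraries 5.19% did so, and 4 of the 33 members were called in a single library. The 2 members are near that share. It was called in 7 libraries, so the width test, which needs all 8, did not cover it. About 41 kb into the gene lay the only Kit region called in every library, chr5:76011103-76012604. It covered 422 and 278 bp in Smc3 fl/del Flt3-ITD, 981 and 404 bp in Flt3-ITD, 1502 and 371 bp in Smc3 del/+, and 351 and 326 bp in control. The difference by Flt3-ITD was -0.09 ± 0.52 on the log2 scale (limma, adjusted p = 0.988).

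The Kit regions called in both libraries of a genotype and in neither of another all lay further into the gene. A region about 30 kb past the start, chr5:75999928-76001157, was called in both Smc3 fl/del Flt3-ITD libraries (363 and 664 bp) and both controls (595 and 1152 bp), and in no Flt3-ITD or Smc3 del/+ library. Sets of 4 libraries were compared by Flt3-ITD (with against without), by Smc3 deletion (with against without) and by their interaction (Smc3 fl/del Flt3-ITD and control against Flt3-ITD and Smc3 del/+). A region could separate the sides only if all 4 libraries of at least 1 side had a peak in it, and the shares below are of such regions. For the interaction 15 members could, and the 30 kb region was the only one called on all of the first side and none of the second, against 403 of 49575 regions genome-wide (0.813%; reverse 0.0968%). Of 14 members none separated the libraries with Flt3-ITD from those without it (genome-wide 1.92%, reverse 2.5%), and of 14 none did so by Smc3 deletion (0.311%, reverse 0.394%). Within its own list the peak outranked 62.3% and 65.1% of the peaks in Smc3 fl/del Flt3-ITD, against 28.5% and 7.71% in control. When each list was limited to its top 50% by score, the 2 Smc3 fl/del Flt3-ITD libraries kept it and the controls did not.

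Next to it, about 34 kb past the start, chr5:76003989-76005050 was called in Smc3 del/+ alone (757 and 1062 bp). These were weak peaks, which outranked 0.867% and 24.3% of their lists. At about 66 kb, chr5:76036882-76037475 was called in Smc3 fl/del Flt3-ITD alone (344 and 594 bp), and at about 59 kb chr5:76029512-76029868 was called in control alone (357 and 299 bp). Among regions called in both libraries of a genotype or in all 6 others, those called in that genotype alone numbered 2 of 20 members for Smc3 fl/del Flt3-ITD (the 66 kb region and 1 in Flt3), against 7.93% genome-wide. They numbered 0 of 14 for Flt3-ITD (0.725%), 1 of 15 for Smc3 del/+ (1.27%) and 1 of 16 for control (1.3%). These calls depended on the lists: with equal peak numbers the 66 kb and 59 kb regions kept 1 library each, and with the top 50% by score the 34, 59 and 66 kb regions had no peak in any library. No member was missing from a single genotype and called in all other libraries (genome-wide 0.771% for Smc3 fl/del Flt3-ITD, 0.879% for Flt3-ITD, 2.67% for Smc3 del/+ and 0.434% for control). The 59 kb site had a neighbour 6 bp away, called in Flt3-ITD replicate 2 (301 bp) and control replicate 1 (323 bp). Both became a single region when small gaps were merged. About 27 kb past the start, chr5:75997066-75998028 was called in both Smc3 fl/del Flt3-ITD libraries (463 and 815 bp), Flt3-ITD replicate 2 (306 bp) and control replicate 1 (509 bp), and in no Smc3 del/+ library. It kept 2 libraries with equal peak numbers and none with the top 50% by score. The other 4 Kit regions past the start, about 1, 2, 5 and 49 kb into the gene, were called in at most 2 libraries, never both of a genotype, with 161 to 1137 bp.

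**Figure D3:**
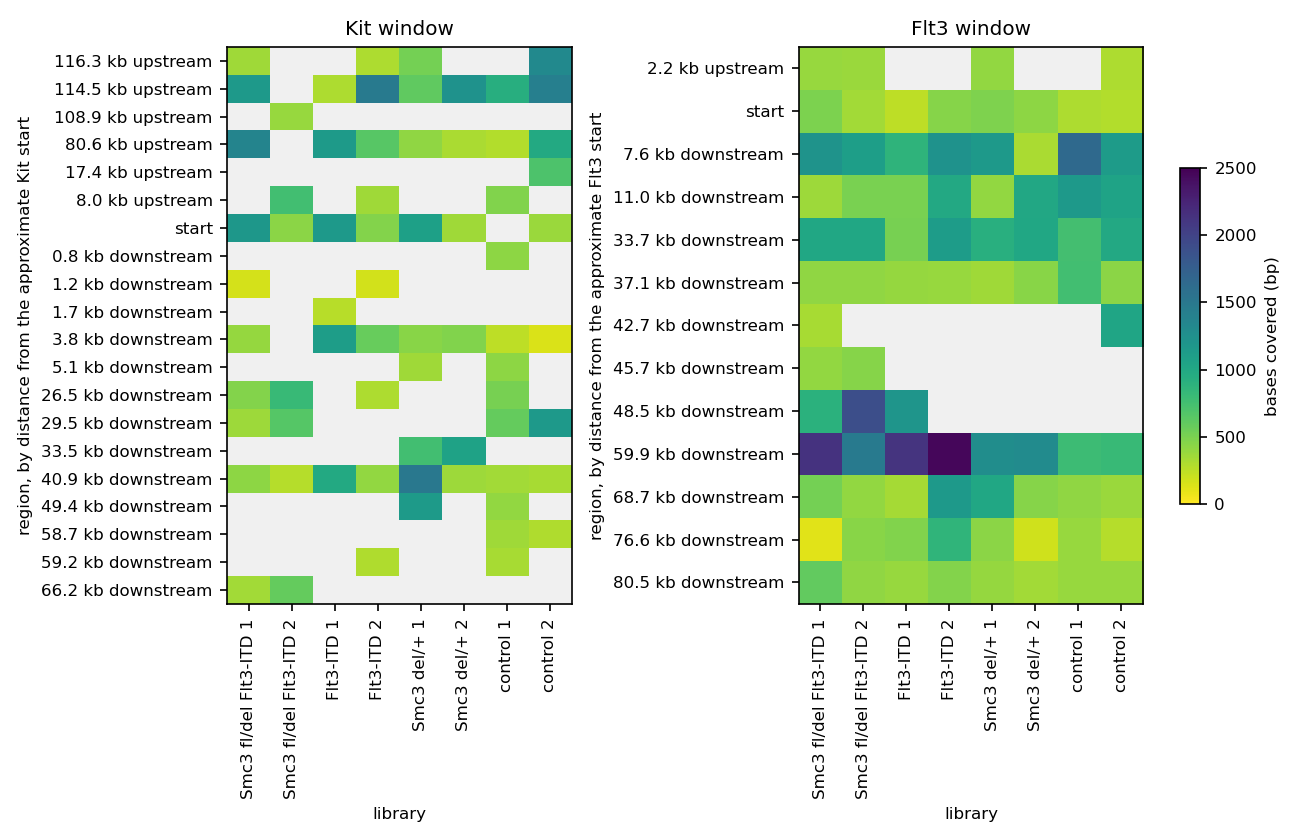
Bases covered by peaks in each of the 33 regions, in bp by colour, with regions down the page in order along transcription and libraries across; grey marks no peak. The 60 kb region of Flt3 covers between 1476 and 2459 bp in the 4 libraries with Flt3-ITD and between 789 and 1292 bp in the other 4.

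Inside Flt3, the widest region was chr5:148150630-148153548, 2919 bp long and about 60 kb past the start, toward the end of the gene. It covered 2130 and 1476 bp in Smc3 fl/del Flt3-ITD, 2121 and 2459 bp in Flt3-ITD, 1276 and 1292 bp in Smc3 del/+, and 789 and 814 bp in control. All 4 libraries with Flt3-ITD thus lay above all 4 without it. Of the 10 member regions called in all 8 libraries it was the only one so separated. Among all 36101 such regions, 1.24% were higher in all 4 libraries with Flt3-ITD and 1.92% lower. By Smc3 deletion (1.5% higher, 1.3% lower) or by interaction (0.77% and 3.35%) no member was separated. The log2 difference by Flt3-ITD was 1.02 ± 0.19 (SE), with an unadjusted p of 0.00187 and an adjusted p of 0.412 (limma, Benjamini-Hochberg over 36101 regions), so it did not pass. With the Flt3-ITD and Smc3 del/+ labels exchanged it was 0.14, and with lists limited to their top 50% by score it was 2.07. For the pairs with control it was 1.16 ± 0.28 in Smc3 fl/del Flt3-ITD (adjusted p = 0.546), 1.44 ± 0.28 in Flt3-ITD (adjusted p = 0.319) and 0.57 ± 0.28 in Smc3 del/+ (limma, adjusted p = 0.827). These share the control libraries. The region held 2 peaks in each of 7 libraries and 3 in control replicate 2. It lies in the gene that the Flt3-ITD allele alters, and what the altered allele itself does to these peaks was not tested.

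The widths of shared regions were tested by limma over all regions called in every library, 9 around Flt3 and 1 around Kit among them. No member passed in any of 8 contrasts (5 pairs, Flt3-ITD, Smc3 deletion and interaction), and no region genome-wide did, 0.0% in each. At an unadjusted p of 0.05 or less, 1633 to 2619 of the 36101 regions passed per contrast, and of the 10 members 2 did for Smc3 fl/del Flt3-ITD against control, 1 for Flt3-ITD against control and 1 for Flt3-ITD. Beside the 60 kb region, the other for Smc3 fl/del Flt3-ITD against control was chr5:148200390-148201604, about 11 kb past the start, which covered 370 and 505 bp in Smc3 fl/del Flt3-ITD, 500 and 993 bp in Flt3-ITD, 406 and 1002 bp in Smc3 del/+, and 1157 and 1051 bp in control (-1.34 ± 0.54 on the log2 scale, limma, unadjusted p = 0.0461, not past the threshold once adjusted). All libraries of the other genotypes lay below both controls, with 1 library of each single genotype close to them. This was seen with the values known, and the share of all regions with such a split was not counted. For Flt3-ITD, 6 of the 10 members were wider and 4 narrower, with a median log2 difference of 0.06, beside 50.4% wider and a median of 0.00 over all regions.

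Near the start, chr5:148203478-148205300, about 8 kb into the gene, covered 1213 and 1101 bp in Smc3 fl/del Flt3-ITD, 878 and 1222 bp in Flt3-ITD, 1151 and 316 bp in Smc3 del/+ and 1646 and 1124 bp in control. Its widths overlapped between genotypes. Its score was exactly 1 in all 4 libraries with Flt3-ITD and below 1 in the other 4, and the same held for chr5:148174515-148175288, about 37 kb past the start, which covered 388 to 417 bp with Flt3-ITD and 354 to 754 bp without it. These were 2 of 10 members. Of the 36101 regions 1.08% had the pattern and 0.0831% its reverse. No member had it by Smc3 deletion (0.0914%, reverse 0.199%) or by interaction (0.781%, reverse 0.0166%). Ranks within each list did not separate the sides, but they cannot decide here. A rank counts the peaks with a lower score, so for a peak at 1 it depends only on the share of its list at 1. At 8 kb the peak outranked 65.33% and 65.09% of the list in Smc3 fl/del Flt3-ITD and 67.97% and 68.21% in Flt3-ITD. In Smc3 del/+ it outranked 60.92% and 71.02%, and in control 66.34% and 66.63%, with scores up to 0.99999999999996. At 37 kb the libraries with Flt3-ITD had these same ranks, Smc3 del/+ had 45.77% and 67.79%, and control 67.03% and 61.62%. Over the window, peaks with a score of 1 numbered 7 and 8 in Smc3 fl/del Flt3-ITD, 5 and 4 in Flt3-ITD, 2 and 2 in Smc3 del/+ and 2 and 2 in control. The share of each whole list at that score was 34.7% and 34.9% in Smc3 fl/del Flt3-ITD, 32.0% and 31.8% in Flt3-ITD, 27.2% and 27.3% in Smc3 del/+, and 30.9% and 31.6% in control. Each of the 4 lists with Flt3-ITD thus had a higher share than each of the others, by little for Flt3-ITD against control. How the score was computed is unknown here, and this pattern was noticed after seeing the values, so no test was made.

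Regions of Flt3 that were called in some genotypes only lay in the middle of the gene and just before its start. About 46 kb past the start, chr5:148166076-148166548 was called in Smc3 fl/del Flt3-ITD alone (410 and 450 bp). About 49 kb past the start, chr5:148162528-148164425, the second widest Flt3 region, was called in Smc3 fl/del Flt3-ITD (905 and 1898 bp) and in Flt3-ITD replicate 1 (1196 bp), and in no Smc3 del/+ or control library. About 2 kb before the start, chr5:148213984-148214402 was called in both Smc3 fl/del Flt3-ITD libraries (386 and 379 bp), Smc3 del/+ replicate 1 (401 bp) and control replicate 2 (306 bp), and in neither Flt3-ITD library. With the top 50% of each list by score these 3 regions had no peak in any library. A region about 43 kb past the start was called in Smc3 fl/del Flt3-ITD replicate 1 (329 bp) and control replicate 2 (1031 bp). The rest of the regions past the end of the gene and within it, 4 called in all libraries about 34, 69, 77 and 80 kb past the start, ranged from 109 to 1151 bp over the 8 libraries.

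**Figure D4:**
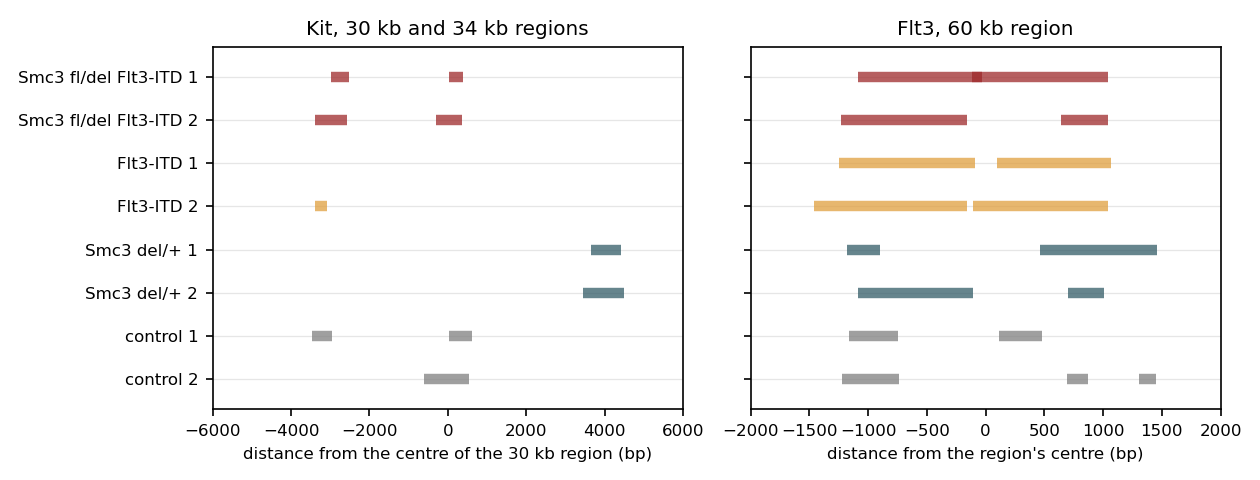
Peaks by library at the 30 kb and 34 kb regions of Kit (left) and the 60 kb region of Flt3 (right), drawn as bars against the distance in bp from the centre of the 30 kb and of the 60 kb region. At the centre of the left panel peaks appear in Smc3 fl/del Flt3-ITD and control only, and 34 kb peaks in Smc3 del/+ only; on the right the bars together cover the most bases in the 4 libraries with Flt3-ITD.

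Counted by genotype pair, a region was gained when it had a peak in both libraries of the genotype named first and in no library of the other, and lost in the reverse case. Such counts carry no test, because 2 libraries against 2 cannot go below an exact p of 0.333. Smc3 del/+ against control gained 1 member region (genome-wide 3.02% of regions that could pass) and lost 2 (8.04%), of 8 around Kit and 9 around Flt3. Flt3-ITD against control gained none (4.42%) and lost 2 (7.85%), of 7 and 9. The 2 losses were the 30 kb and 59 kb regions of Kit in both comparisons, which share the control libraries. Smc3 fl/del Flt3-ITD against control gained 3 (14.2%) and lost 1 (6.0%), of 9 and 12. Against Flt3-ITD, Smc3 fl/del Flt3-ITD gained 4 (13.0%) and lost none (2.96%), of 8 and 12. Against Smc3 del/+, it gained 5 (19.7%) and lost 1 (5.95%), of 9 and 12. No Flt3 region was lost in any of the 5 pairs. With a single library left on a side the rule is looser, for the members and genome-wide alike. Gains and losses together, 3 of 17 members for Smc3 del/+ against control (genome-wide 11.1%), were 5 of 21 without control replicate 1 (21.6%) and 8 of 23 without control replicate 2 (22.3%). For Flt3-ITD against control, 2 of 16 in all (12.3%), they were 5 of 20 (22.3%) and 6 of 22 (24.2%) without those libraries and 4 of 18 (22.1%) without Flt3-ITD replicate 2. For Smc3 fl/del Flt3-ITD against control, 4 of 21 in all (20.2%), they were 10 of 26 without control replicate 2 (29.3%) and 8 of 23 without Smc3 fl/del Flt3-ITD replicate 1 (29.6%). Without the last library they were 8 of 22 against Flt3-ITD (26.1%; 4 of 20 and 16.0% with it) and 11 of 23 against Smc3 del/+ (34.6%; 6 of 21 and 25.7% with it).

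The bases covered over a whole window were compared 4 libraries against 4. In the Flt3 window peaks covered 8897 and 8837 bp in Smc3 fl/del Flt3-ITD, 7058 and 9111 bp in Flt3-ITD, 6830 and 5468 bp in Smc3 del/+ and 6597 and 7091 bp in control. The 4 libraries with Flt3-ITD averaged 8476 ± 952 bp and the 4 without it 6496 ± 715 bp (SD, n = 4 each). The sides overlapped, since Flt3-ITD replicate 1 lay under control replicate 2. The difference of 1979 bp had an exact two-sided permutation p of 0.0571 and an adjusted p of 0.343 over 6 tests. The smallest p that 4 against 4 allows is 0.0286. Adjusted over 6 tests, a lone difference at that smallest p would still miss the threshold, so the adjusted p cannot decide here. In the 60 kb region alone the means were 2046 bp with and 1043 bp without Flt3-ITD, a difference of 1004 bp. Without both Smc3 fl/del Flt3-ITD libraries the difference was 1588 bp (exact permutation p = 0.133, where 2 against 4 allows no p below 0.0667). With the exchanged labels it was 43.8 bp. Smc3 deletion gave a difference of 43.8 bp (exact p = 0.971) and the interaction 739 bp (exact p = 0.571).

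In the Kit window peaks covered 6215 and 3917 bp in Smc3 fl/del Flt3-ITD, 4964 and 5028 bp in Flt3-ITD, 6834 and 3797 bp in Smc3 del/+ and 5343 and 6706 bp in control. The 2 libraries of Smc3 fl/del Flt3-ITD lay further apart than any of the genotype means, and so did those of Smc3 del/+ and of control. The 4 libraries with Flt3-ITD averaged 5031 ± 939 bp and the 4 without it 5670 ± 1419 bp (SD, n = 4 each), a difference of -639 bp (exact p = 0.457). For Smc3 deletion the difference was -320 bp (exact p = 0.743) and for the interaction 390 bp (exact p = 0.657). None passed.

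**Figure D5:**
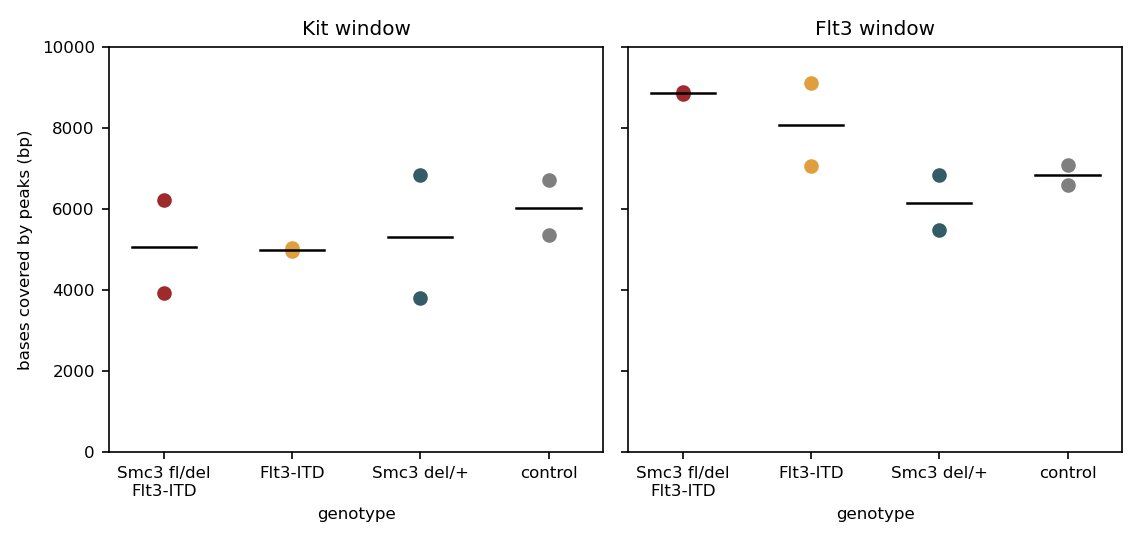
Bases covered by peaks over each whole window, 1 point per library and a line at the genotype mean of 2 libraries. In the Flt3 window the 4 libraries with Flt3-ITD lie between 7058 and 9111 bp and the other 4 between 5468 and 7091 bp; in the Kit window those with and those without Flt3-ITD overlap.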

How the data were processed

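The deposited files are peak lists of mouse ATAC-seq libraries, 1 per library, without a header; they give mm9 start and end, a name, a score and a strand. Bowtie (version unknown) and the mm9 build are listed, per the submitters' processing notes. The peak caller, its settings, and how the transposase offset and duplicate reads were handled are not given in the sources at hand. The score is the authors' own deposited value, from 0.99 to 1, and was used for ranks and limits inside each list. Scores of exactly 1 were also compared between libraries and between windows. Widths were computed from the deposited coordinates. No mm9 annotation was used, so gene bounds are rounded, distances are approximate, exons and introns are not assigned and other genes of the pathways were not analysed here.

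Peaks sharing at least 1 bp across libraries were merged, and the bases each library covers in a region were counted once. Window totals were compared by exact permutation with Benjamini-Hochberg adjustment. Log2 bases covered, centred on each library's median, were fitted by limma over all regions called in all 8 libraries, with 1 mean per genotype and a threshold of 0.05. Described singly were the regions at the starts, the 3 widest of each window, and those called in both libraries of a genotype and neither of another; the Kit 81 kb and Flt3 11 and 37 kb regions were chosen in addition, with their values known. The members and comparisons were chosen with earlier results of these data known. The limma step was tested on simulated data. Promoter sequences are from RefSeq, GRCm38.p6; both Kit and Flt3 matched. Alternatives were the upper 50% of each list by score, equal numbers of peaks (61953), bases per Mb covered, the gene body alone, an overlap of 200 bp, merging across gaps of 100 bp, no Smc3 fl/del Flt3-ITD libraries (the last 2 chosen after seeing the data), calls at 100 bp, no centring, a variance trend, a replicate block, exchanged labels and each library left out. Python 3.11.15, numpy 2.4.6, pandas 2.3.3, matplotlib 3.10.9, R 4.3.3 and limma 3.58.1 were used.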

Additional observations from a re-analysis of the deposited data

Results flagged for a closer look

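At 2 of the 33 member regions, both around Kit, Smc3 deletion went with opposite directions without and with Flt3-ITD, in every library. Of the 33, 4 were called in a single library and fall outside the share given next, and the 2 are near that share. Genome-wide 5.19% of regions called in at least 2 libraries did so, and the difference between the effects was not tested. At the region about 4 kb past the start, Smc3 del/+ averaged 461 bp and control 198.5 bp, a difference of 262.5 bp, whereas Smc3 fl/del Flt3-ITD had 400 bp in replicate 1 and no peak in replicate 2 and Flt3-ITD averaged 846.5 bp, a difference of -646.5 bp. At the region about 30 kb past the start, Smc3 del/+ had no peak and control averaged 873.5 bp, a difference of -873.5 bp, whereas Smc3 fl/del Flt3-ITD averaged 513.5 bp and Flt3-ITD had no peak, a difference of 513.5 bp.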

How the results depend on the processing

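No width call appeared at any member under any alternative, and the log2 difference of the 60 kb region of Flt3 by Flt3-ITD kept its sign in all of them, from 0.88 to 1.15 with a library left out. The Flt3 window difference by Flt3-ITD stayed positive, 892.5 bp with the upper 50% by score, 1558 bp with equal peak numbers, and 1636 to 2452 bp with a library left out. With the Flt3-ITD and Smc3 del/+ labels exchanged both were much smaller, 0.14 for the log2 difference and 43.8 bp for the window. Differences far from any threshold changed sign. For Smc3 deletion in the Flt3 window (43.8 bp) the value was -249 bp with the upper 50%, -13.1 bp per Mb covered by the library, -98.25 bp in the gene body alone, -1315 bp without both Smc3 fl/del Flt3-ITD libraries (chosen after seeing the data) and -419 to 724 bp with a library left out. For the interaction in the Flt3 window it was -273 bp without both Smc3 fl/del Flt3-ITD libraries. In the Kit window Smc3 deletion gave 490 bp in the gene body alone and -867 to 145 bp with a library left out, and the interaction -735 bp with equal peak numbers, -308 bp in the gene body alone and -63.4 to 949 bp with a library left out. Regions gained or lost with the upper 50% numbered 0 of 12 members for Smc3 del/+ against control (genome-wide 12.9%), 1 of 11 for Flt3-ITD against control (10.3%), 1 of 11 for Smc3 fl/del Flt3-ITD against Flt3-ITD (16.8%) and 2 of 12 against Smc3 del/+ (25.8%). For Flt3-ITD against control it was 1 of 15 with equal peak numbers (12.5%) and 1 of 16 with gaps of up to 100 bp merged (12.1%; chosen after seeing the data). With a library left out the numbers were 3 to 8 for Smc3 del/+, 3 to 6 for Flt3-ITD and 5 to 10 for Smc3 fl/del Flt3-ITD against control, and 5 to 8 against Flt3-ITD and 7 to 11 against Smc3 del/+; fewer libraries loosen the rule, genome-wide shares were then 21.4% to 35.3% over these pairs, and the highest values came without Smc3 fl/del Flt3-ITD replicate 1 or control replicate 2. The causes of the other changes were not tested. Over all shared regions, equal replicate numbers showed next to no common deviation in width (correlations from -0.0133 to 0.00861). That gives no sign of pairing, but it cannot exclude a batch shared by libraries of the same number. With a replicate block the Flt3 window difference by Flt3-ITD was 1979 bp (exact permutation p = 0.0556) and 0 members changed in width. Peak lists without read depth cannot show whether an uncalled region was closed.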
